A study of Rattus norvegicus with 4 samples.

Results

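The 10 genes described here are core genes of brown fat heat production: Ucp1, Cidea, Ppargc1a, Dio2, Elovl3, Prdm16, Cox8b, Otop1, Esrrg and Acot11. They were taken by symbol from the 32883 genes of the deposited matrices, and all 10 were found. The data are single-nucleus RNA counts from male Dahl SS rats (strain SS/HsdMcwiCrl), a rat strain bred for salt-sensitive hypertension, aged 16 weeks and housed at 22 °C. The animals were naive, so no group had a treatment or an altered gene. The groups are 2 libraries of thoracic aorta perivascular adipose tissue (taPVAT), the fat sheath around the aorta, and 2 libraries of subscapular brown adipose tissue (BAT), a classical brown fat depot. The design text speaks of 2 rats for each tissue, but the labels do not say whether libraries of the same number came from the same rat.

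Brown adipocytes burn fuel to make heat. Noradrenaline acts on beta-adrenergic receptors and raises cAMP, which releases fatty acids from lipid droplets and turns on transcription of thermogenic genes. The fatty acids fuel the mitochondria and open Ucp1, a carrier of the inner mitochondrial membrane that lets protons flow back without making ATP. Fat around the thoracic aorta of rodents is known to resemble brown fat.

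Promoter sequences are shown for 4 of these genes, chosen after their values were seen. Ppargc1a and Dio2 were higher in both libraries numbered 2, as was Prdm16, and Ucp1 and Otop1 were higher in both libraries numbered 1, as were Acot11 and Cidea. Each is the 250 bases before the start of the gene in RefSeq's annotation of GRCr8, written 5′ to 3′ on the gene's strand. TGACG is the core of the cAMP response element and TGACGTCA its full form. TGACG was searched on both strands, and the capitals mark the matches. The Ucp1 window is chr19:41721422-41721671 on the minus strand. Ppargc1a lies at chr14:63634058-63634307 on the plus strand. The Dio2 window is chr6:115410595-115410844 on the minus strand. Otop1 lies at chr14:76744786-76745035 on the minus strand.
Ppargc1a: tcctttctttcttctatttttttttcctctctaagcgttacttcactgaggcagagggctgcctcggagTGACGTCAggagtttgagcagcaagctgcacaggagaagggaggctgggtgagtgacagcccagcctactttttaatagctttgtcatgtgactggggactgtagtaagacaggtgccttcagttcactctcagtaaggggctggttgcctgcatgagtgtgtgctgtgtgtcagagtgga
Dio2: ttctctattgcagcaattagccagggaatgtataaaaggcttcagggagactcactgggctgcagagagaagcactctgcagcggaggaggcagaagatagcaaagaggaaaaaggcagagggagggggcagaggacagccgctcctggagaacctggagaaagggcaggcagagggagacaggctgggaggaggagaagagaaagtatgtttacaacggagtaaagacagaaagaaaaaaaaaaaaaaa
Ucp1: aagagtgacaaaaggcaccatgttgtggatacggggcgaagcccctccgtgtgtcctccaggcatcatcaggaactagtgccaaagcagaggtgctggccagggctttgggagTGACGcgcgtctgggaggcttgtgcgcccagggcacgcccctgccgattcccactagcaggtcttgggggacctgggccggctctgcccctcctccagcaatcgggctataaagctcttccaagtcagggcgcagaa
Otop1: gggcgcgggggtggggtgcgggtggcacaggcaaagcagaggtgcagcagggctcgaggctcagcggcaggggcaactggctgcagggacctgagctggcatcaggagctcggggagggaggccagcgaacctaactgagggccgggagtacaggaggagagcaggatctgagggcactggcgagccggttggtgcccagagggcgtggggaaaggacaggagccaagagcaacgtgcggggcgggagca
Ppargc1a held the full TGACGTCA, with its first base 181 bases before the start. This form was present in 1.59% of the 33469 promoter windows of the same length. Ucp1 held TGACG alone, 137 bases before the start, and 18.2% of all windows held TGACG on either strand, the full form included. The Dio2 and Otop1 windows had no match. Ppargc1a and Ucp1 were the only 2 of the 10 genes with TGACG in a window, over 13 windows because Esrrg has 4 starts. A match is a string of letters, not a measured binding site, and elements farther away were not searched. The counts themselves were made on another build, Rnor_6.0, per the submitters' processing notes.

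The 4 libraries held 63654436 to 158140959 UMIs (unique molecular identifiers, each standing for 1 captured RNA molecule). The matrices listed 14765 to 44637 barcodes per library, against a targeted recovery of 10000 per the labels. After the limit of 500 detected genes, 12336 to 42979 remained. Libraries shared 93 to 381 barcodes pairwise, at most 1.19% of the smaller library. Nuclei were put into classes by marker genes that include none of the 10. The adipocyte-like class, called adipocytes below, held 24302 and 7786 nuclei for taPVAT and 22876 and 17970 for BAT. Here and below, a pair of values for a tissue gives replicate 1 first and replicate 2 second. The 12 adipocyte markers, such as Adipoq, Plin1 and Lipe, summed to 16887 to 19241 CPM (UMIs of a gene per 1000000 UMIs of the class in that library) and none was at 0 in any library. The class was selected on these same markers, and all kept nuclei together had 15941 to 18420 CPM of them. Pnpla2, also on the list, had only 0.354 to 0.836 CPM in adipocytes. In the same nuclei, which the class limits on other markers had selected, fibroblast markers summed to 48.7 to 66.9 CPM, endothelial markers to 34.6 to 73.6 and mural markers to 126 to 150.0. Schwann cell markers summed to 681 to 865 CPM, of which Mbp alone had 676 to 862. Erythroid or platelet markers summed to 133 and 611 CPM in taPVAT and 102 and 515 CPM in BAT, with Hba-a1, a globin gene, at 110.1, 554, 88.0 and 425 CPM in the same order. Both libraries numbered 2 were thus higher for blood markers in each tissue, the order of Ppargc1a and Dio2 below. Macrophage markers summed to 55.1 and 26.8 CPM in taPVAT and 79.2 and 23.0 CPM in BAT, higher in both libraries numbered 1, the order of Ucp1, Otop1 and Acot11 below. The macrophage list holds Mertk, which was left out of the class limits. Up to 20.1% of a library's nuclei without another marker of that list held it, and its part in these sums was not tested. The part of blood or macrophage markers in the levels of the thermogenic genes was not tested. Mesothelial markers summed to at most 1.98 CPM.

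In adipocytes, no thermogenic gene passed the test between taPVAT and BAT, and for most of them, as for most genes, replicates of a tissue differed by more than the tissues did. Of the 10 genes, 9 passed the filter on low counts and were tested. With edgeR's quasi-likelihood test, 0 of the 9 were called at an adjusted p under 0.05, as were 0 of all 15412 genes tested (0%). At an unadjusted p under 0.05 the numbers were 0 of 9 genes and 302 of 15412 (1.96%). DESeq2 called 55 of all genes and none of the 9. The adjusted p was 0.99996 for each of the 9. The median log2 fold change, taPVAT over BAT, was -0.13 over the 9 genes and 0.0044 over all genes. The difference between replicates 1 and 2 exceeded the fitted tissue difference in both tissues for 7 of the 9, all but Cidea and Esrrg. The same was found for 62.7% of the 15379 genes with a UMI in every library, and 73.1% of all genes tested moved the same way between replicates in both tissues, beside 7 of the 9. A replicate difference lies between single libraries and a fitted tissue difference between groups of 2. The former varies more, so the comparison favours it.

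Ucp1 (ENSRNOG00000003580), the proton carrier, had 948 and 455 CPM in the taPVAT pair and 1568 and 663 CPM in the BAT pair. BAT replicate 1 was highest, taPVAT replicate 2 lowest, and the tissues overlapped because taPVAT replicate 1 exceeded BAT replicate 2. The fitted log2 fold change was -0.63 (SE 0.51, unadjusted p = 0.263 by edgeR). Within a replicate number, the log2 ratio of the CPM values, taPVAT over BAT, was -0.73 for number 1 and -0.54 for number 2. Between replicates, number 1 exceeded number 2 by 2.08-fold in taPVAT and 2.36-fold in BAT. Ucp1 was thus the gene of the 9 with the largest fitted tissue difference, and that difference was smaller than the one between replicates.

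Ppargc1a (ENSRNOG00000004473), the coactivator that drives mitochondrial biogenesis and is induced by cold, showed the opposite order of replicates. Its level was 3122 and 14008 CPM in the taPVAT pair and 1497 and 12188 CPM in the BAT pair. Both libraries numbered 2 lay above both numbered 1, by 4.49-fold in taPVAT and 8.14-fold in BAT. Only 0.759% of the 15412 genes had a larger difference of one sign in both tissues. The tissue difference was 0.35 (SE 1.10) on the log2 scale, and within numbers it was 1.06 and 0.20.

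Dio2 (ENSRNOG00000003891), the deiodinase that makes active thyroid hormone inside brown adipocytes, followed the same order at a low level. Its level was 2.73 and 12.9 CPM in taPVAT and 1.51 and 13.7 CPM in BAT. The libraries numbered 2 were 4.73-fold and 9.08-fold higher, and the tissue difference was 0.86 on the log2 scale within number 1 and -0.08 within number 2. These levels rest on 154 UMIs in BAT replicate 1 and 232 in taPVAT replicate 1.

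Otop1 (ENSRNOG00000028423), a proton channel of the cell membrane, ran the other way. It had 124 and 29.6 CPM in the taPVAT pair and 163 and 16.1 CPM in the BAT pair. Number 1 exceeded number 2 by 4.18-fold and 10.1-fold. The fitted tissue difference was -0.18 (SE 1.07), with -0.40 and 0.88 within numbers 1 and 2. Acot11 (ENSRNOG00000007837), a thioesterase that splits fatty acyl-CoA, had the same order with smaller steps. Its level was 411 and 211 CPM in taPVAT and 429 and 152 CPM in BAT, so number 1 exceeded number 2 by 1.95-fold and 2.81-fold.

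Cidea (ENSRNOG00000018505), a lipid droplet protein of brown adipocytes, varied little. It had 280 and 272 CPM in taPVAT and 378 and 301 CPM in BAT. Both taPVAT libraries lay below both BAT libraries, with a fitted log2 fold change of -0.26 (SE 0.26). Esrrg (ENSRNOG00000002593), a nuclear receptor that acts on mitochondrial genes, showed the same order. It had 464 and 526 CPM in taPVAT against 563 and 546 CPM in BAT, at -0.13 (SE 0.27). Groups that did not overlap in this direction were found for 1598 of the 15412 genes (10.4%), and in the other direction for 1436 (9.32%), beside 2 and 0 of the 9.

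Prdm16 (ENSRNOG00000045913), a transcriptional regulator that directs precursors to brown adipocytes, had 56.9 and 79.2 CPM in taPVAT and 60.4 and 73.6 CPM in BAT. Its tissue difference was 0.06 (SE 0.31), and both libraries numbered 2 were the higher ones. Cox8b (ENSRNOG00000014656), a cytochrome oxidase subunit of muscle and brown fat, had 319 and 217 CPM in taPVAT and 295 and 373 CPM in BAT. Its replicate order was not the same in both tissues, and the fitted difference was -0.30 (SE 0.31). Elovl3, a fatty acid elongase known as cold-induced in brown fat, was close to undetected in these counts. Whether the annotation used for counting covers the end of its transcripts was not tested. All kept nuclei together held 1 Elovl3 UMI in taPVAT replicate 1 and 1 UMI in BAT replicate 2, with none in the other libraries. A count of 0 there allows up to 0.0486 CPM in taPVAT replicate 2 and 0.0192 CPM in BAT replicate 1, at 3 counts of the total, and covers counting error only.

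**Figure D1:**
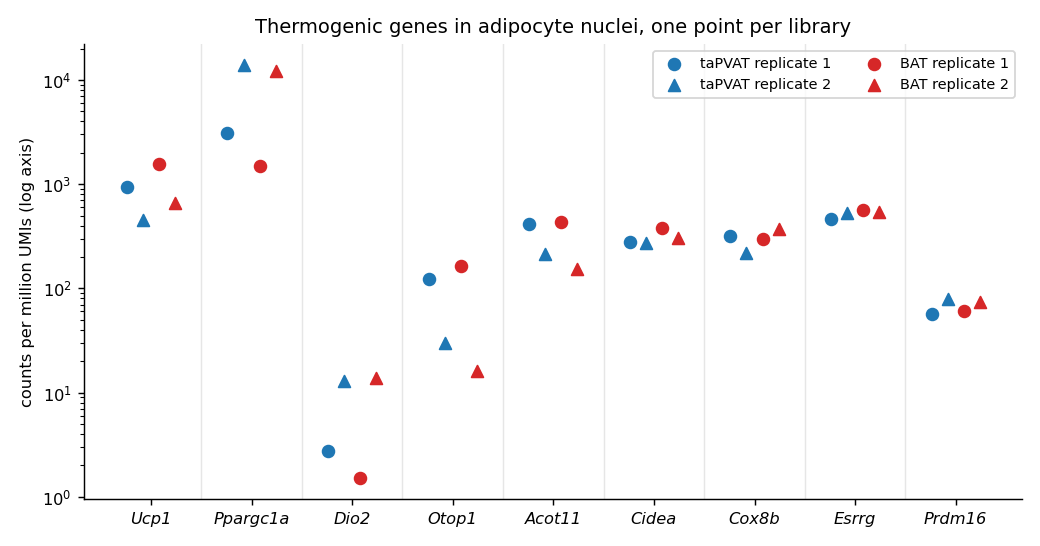
Level of the 9 tested thermogenic genes in adipocyte nuclei, in CPM on a log axis, with 1 point per library (circles replicate 1, triangles replicate 2, blue taPVAT, red BAT). For Ppargc1a and Dio2 both triangles lie above both circles, for Otop1 and Acot11 both lie below, and Cidea, Esrrg and Prdm16 stay close together.

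The direction of the tissue comparison depended on single libraries for 6 of the 9 genes. Ucp1, at -0.63 with all libraries, was at 0.01 when BAT replicate 1 was left out. Without BAT replicate 2, Ppargc1a was at 2.63 (adjusted p = 0.00153 by edgeR), in a fit where the spread comes from the 2 taPVAT libraries alone and the lone BAT library is assumed to vary like them, while without taPVAT replicate 2 it was -1.18 and without BAT replicate 1 it was -0.53. The direction of Dio2, Prdm16 and Otop1 also turned without taPVAT replicate 2 and without BAT replicate 1, to -1.52 and -0.84, to -0.26 and -0.16, and to 0.48 and 2.16. Acot11, at 0.14, was -0.39 without taPVAT replicate 1 and -0.40 without BAT replicate 2. The direction of Cidea, Cox8b and Esrrg did not turn when any one library was left out. What the replicate numbers stand for, beyond 2 samples of a tissue, was not tested.

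In sums over all kept nuclei the same genes gave the same picture. With edgeR, 0 of 9 were called, beside 0 of all 17047 genes (0%), of which 503 had an unadjusted p under 0.05 (2.95%) and none was one of the 9. DESeq2 called 121 of all genes and none of the 9. Ucp1 had a log2 fold change of -0.63 (SE 0.53) and Ppargc1a one of 0.31 (SE 1.10). In such sums fewer cells of a type and less RNA per cell cannot be told apart.

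The steps between replicates were seen in every class for some genes. Ppargc1a was higher in replicate 2 in 5 of 5 classes of both tissues, by 1.15 to 2.17 on the log2 scale in taPVAT and 2.60 to 3.21 in BAT. Ucp1, Otop1 and Acot11 were lower in replicate 2 in 5 of 5 classes of both tissues. The classes are not separate evidence, because adipocyte markers were also counted in the other 4. Their median level there was 46.7% to 80.9% of the adipocyte level, and where those counts come from was not tested. The UMIs of Ppargc1a for each UMI of Ucp1 in adipocytes numbered 3.29 and 30.8 for taPVAT, and 0.955 and 18.4 for BAT. In fibroblast-like, endothelial-like, mural-like and macrophage-like nuclei this ratio lay between 3.09 and 3.38 for the first taPVAT library and between 16.7 and 22.1 for the second. For BAT the ranges were 0.855 to 1.08 and 15.1 to 17.1. Adipocytes exceeded all 4 of these classes in both libraries numbered 2 and lay inside their range in both numbered 1.

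The other genes of heat production were followed through lists of 6 pathways in adipocytes. With edgeR none of the listed genes was called in either direction, beside 0% of all genes, and DESeq2 called none of them either. With the replicate number added to the edgeR fit, 6 of the 58 tested were called, beside 223 higher and 103 lower of 15412 genes. These 6 were Acsl5, Adcy3, Agt and Hoxc8, higher in taPVAT, and Lhx8 and Slc7a10, lower. This fit treats same-numbered libraries as pairs, which the labels do not state. Hoxc8 passed the filter on low counts only through taPVAT, with 0.00979 and 0.0175 CPM in BAT. Receptors and the cAMP route, which carry the noradrenaline signal, had 4 of 9 tested genes higher and 5 lower in taPVAT, with a median log2 fold change of -0.04 against 0.0044 over all genes. Adcy3, an adenylyl cyclase, had the highest value, 0.90 (SE 0.87), from 164 and 41.1 CPM in taPVAT and 94.3 and 18.7 CPM in BAT. The lowest, Kcnk3, a potassium channel that opposes the depolarisation of brown adipocytes, had -0.30 (SE 0.48) with 388 and 198 CPM against 510 and 229 CPM. Both genes were lower in replicate 2 of both tissues, the order of Ucp1. Adcy3 turned to -0.39 without taPVAT replicate 1. Kcnk3 turned to 0.07 without taPVAT replicate 2 and to 0.28 without BAT replicate 1.

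Transcription factors of brown fat split evenly, with 7 of 14 higher and 7 lower in taPVAT and a median of -0.0042. Lhx8, a LIM homeobox factor used as a marker of brown fat, was the lowest at -0.997 (SE 0.26). It had 17.7 and 14.8 CPM in taPVAT against 31.8 and 34.4 CPM in BAT, without overlap. Rxra, the partner of many nuclear receptors, was the highest at 0.47 (SE 0.34), with 43.9 and 41.4 CPM against 41.2 and 22.3 CPM. Genes of mitochondrial fuel use and respiration were 6 higher and 8 lower of 14, with a median of -0.02. Cox4i1, a cytochrome oxidase subunit, stood lowest at -0.31 (SE 0.31), and Cpt2, which moves fatty acids into oxidation, highest at 0.16 (SE 0.28). Cpt2 turned to -0.01 and -0.03 without taPVAT replicate 1 and without BAT replicate 2.

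Lipid and secreted genes of brown fat were 5 higher and 4 lower of 9 tested, with a median of 0.07. Acsl5, which activates fatty acids, was the highest at 1.63 (SE 0.38, unadjusted p = 0.00569 by edgeR), with 1251 and 1159 CPM in taPVAT against 535 and 271 CPM in BAT. Its groups did not overlap and its replicates of taPVAT lay close together, but its adjusted p was 0.99996 with edgeR. With the replicate number added to the fit, a pairing that the labels do not state, Acsl5 had 1.69 (adjusted p = 5.31e-05 by edgeR). Plin5, a lipid droplet protein of oxidative tissues, was lowest at -0.47 (SE 0.43), and turned to 0.18 without BAT replicate 1. Genes of heat by other routes, the creatine and calcium cycles, were 4 higher and 2 lower of 6 tested, with a median of 0.14. Atp2a2, the calcium pump of the endoplasmic reticulum, was highest at 0.33 (SE 0.25), with 400 and 378 CPM against 326 and 307 CPM. Alpl, a phosphatase of the creatine cycle, was lowest at -0.34 (SE 0.55), and turned to 0.03 without taPVAT replicate 1 and 0.40 without BAT replicate 2.

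White fat genes were 2 higher and 4 lower of 6 tested, with a median of -0.22. Hoxc8, a positional factor, had 0.236 and 0.148 CPM in taPVAT against 0.00979 and 0.0175 CPM in BAT, where it rests on 1 UMI in each library. Slc7a10, an amino acid transporter, had 2.0 and 1.87 CPM in taPVAT against 4.29 and 4.95 CPM in BAT, at -1.22 (SE 0.35). The genes with the smallest p in each direction were not thermogenic genes. On the lower side in taPVAT were the positional factors Zic4, Irx5 and Zic1, Zic4 with 0 and 0 CPM against 7.66 and 5.04 CPM and Zic1 with 0 and 0 against 2.68 and 2.01. Irx5 had 0.0236 and 0.0246 against 2.06 and 1.31 CPM. On the higher side were Ush1c and Slit2, Slit2 with 71.2 and 63.2 CPM against 17.0 and 16.5 CPM. Ush1c had 18.0 and 13.5 against 1.62 and 1.64 CPM. None of these 5 passed the adjusted threshold in this edgeR fit, made without the replicate number, and its lowest adjusted p was 0.432. Other settings of the fit did call genes, as given in the closing section.

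The thermogenic genes other than Elovl3 were also counted in nuclei of other classes. The 12 adipocyte markers were set beside them for comparison, and where the counts in other classes come from was not tested. Of the markers, 11 had at least 100 UMIs in adipocytes of each library. Their median level in another class lay between 46.7% and 80.9% of the adipocyte level over the 16 combinations of 4 classes and 4 libraries. Leaving out Elovl3, Dio2 and Cox8b, the other 7 thermogenic genes lay between 34.5% and 88.8%, with a median of 68.7% over 112 values. All 112 were under the adipocyte level.

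Ucp1 was within the range of the adipocyte markers in 15 of 16 combinations and below it in 1, with 63.4% to 83.5% of its adipocyte level. Fibroblast-like nuclei had 695 and 289 CPM of Ucp1 in the taPVAT pair and 997 and 489 CPM in BAT. The values in endothelial-like nuclei were 726, 297, 1176 and 481 CPM in the same order. Mural-like nuclei had 691, 380, 1003 and 508 CPM, and macrophage-like nuclei 717, 368, 1135 and 493 CPM. The order of the libraries was the same in all 5 classes. Ppargc1a was within the markers' range in 11 and below it in 5, Acot11 within in 8 and below in 8, and Prdm16 within in 12 and below in 4. Cidea, Esrrg and Otop1 were within it in 14, 13 and 13. No value of these 7 genes was above the range. Against the median of the markers, 28 of the 112 values were higher, among them 7 of 16 for Ucp1, which reached 83.5% in mural-like nuclei of taPVAT replicate 2 where the markers had a median of 56.9%.

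Cox8b was different. Its level in the other classes was above all 11 adipocyte markers in 15 of 16 combinations and above its own adipocyte level in 14. In taPVAT replicate 2 it had 217 CPM in adipocytes, against 313 in fibroblast-like, 331 in endothelial-like, 346 in mural-like and 330 in macrophage-like nuclei. The range over the 16 combinations was 94.1% to 159% of the adipocyte level. The same classes had a median mitochondrial share of 9.83% to 18.0%, against 6.25% to 9.91% in adipocytes, and a median depth of 1868 to 2602 UMIs against 2806 to 4872. Whether these have a part in the Cox8b level was not tested. Dio2 lay above the markers in 5 combinations and below them in 7, on 0 to 65 UMIs per class and library. When nuclei needed at least 1000 genes, Cox8b was under its adipocyte level in more combinations. In BAT replicate 2 it was then at most 91.8% in fibroblast-like, 88.6% in endothelial-like and 86.4% in mural-like nuclei. It was also no longer above all markers in those mural-like nuclei, nor in macrophage-like nuclei of BAT replicate 1.

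**Figure D2:**
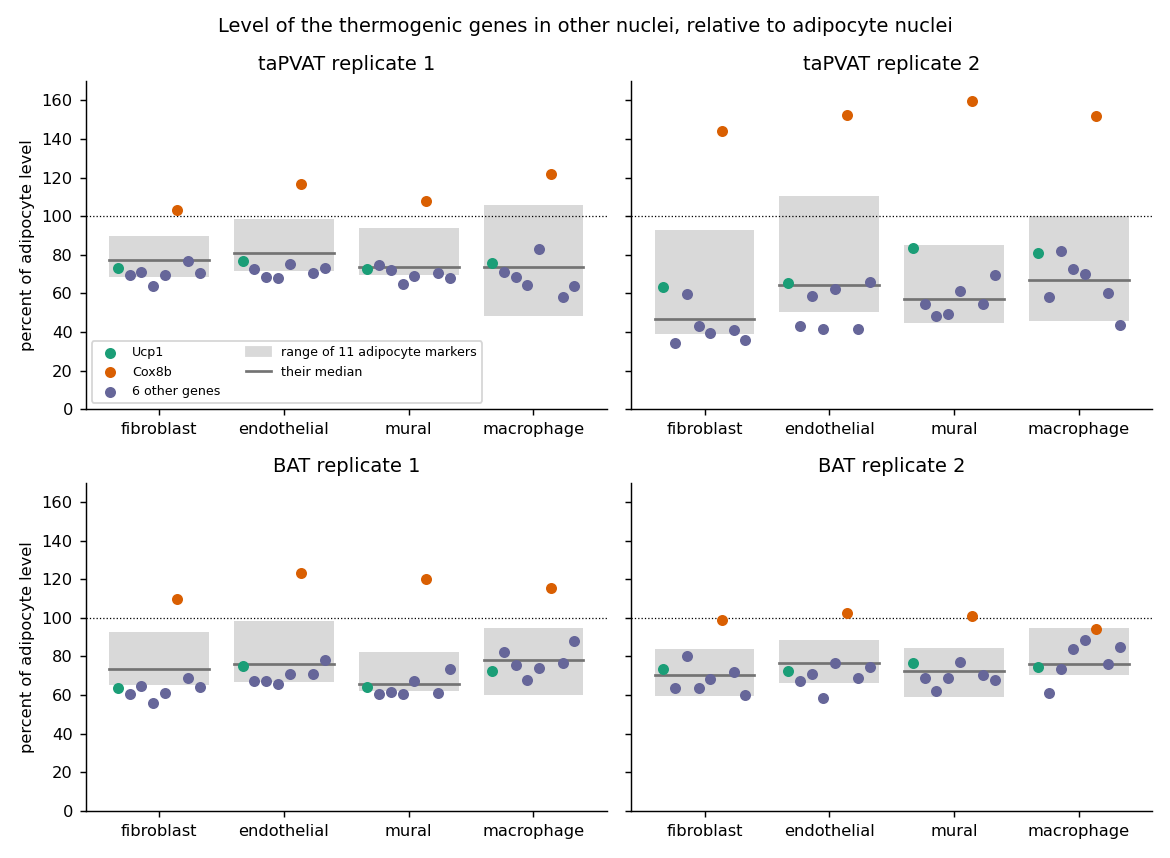
Level of 8 thermogenic genes (points) in 4 other classes of nuclei, as percent of the level in adipocyte nuclei of the same library, beside the range (grey) and median (line) of 11 adipocyte markers. Dio2 and Elovl3 are left out for their few UMIs, the dotted line is the adipocyte level, and Cox8b stands above the grey range in all but macrophage-like nuclei of BAT replicate 2.

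The share of nuclei with a UMI was compared after each nucleus was thinned at random to 1000 UMIs, with shallower nuclei left out (24 to 556 adipocytes per library). At that depth 57.9% and 34.3% of taPVAT adipocytes held a Ucp1 UMI, and 72.1% and 43.6% of BAT adipocytes. Without thinning the shares were 86.1%, 78.4%, 93.6% and 73.4%. In the other classes 25.4% to 55.6% of nuclei held one, lower than adipocytes of the same library in 16 of 16 combinations. For Ppargc1a the adipocyte shares were 84.7%, 96.5%, 62.6% and 98.2%, and it too was lower in the other classes in 16 of 16. The same held for Cidea, Prdm16, Otop1, Esrrg and Acot11. Cox8b was again the exception, with a lower share than adipocytes in 1 of 16.

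Detection of the thermogenic genes in the same nuclei as Ucp1 was measured in each library on its own. Of the nuclei of other classes, 25.4% to 55.6% also held a Ucp1 UMI, and where those UMIs come from was not tested. A Ucp1 UMI thus does not by itself show that a nucleus expresses Ucp1. The measure is the log2 odds ratio of detection with Ucp1 among thinned adipocytes, which is 0 when a gene is found as often with Ucp1 as without it. It describes the nuclei of 1 library, and no test was made over nuclei. Over the 8 genes and 4 libraries, 27 of 32 values were above 0, from -0.39 to 1.42. Among adipocytes at or below the median mitochondrial share of their library, 17 of 32 were above 0, and the median over the 8 genes fell to 0.08 and -0.07 in taPVAT and 0.06 and 0.02 in BAT. The background was every gene in at least 2% of all thinned adipocytes, 5283 to 5669 genes. Their median lay between -0.0086 and 0.0046, and 47.9% to 51.5% of them were above 0. No background was made for adipocytes at or below the median mitochondrial share. Dio2, and Otop1 in BAT replicate 2, were in under 2% of nuclei, below the limit of the background.

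Ppargc1a had the highest of the 8 log2 odds ratios in 3 of 4 libraries, and Cidea in BAT replicate 1. Its log2 odds ratio was 0.29 and 0.65 for taPVAT and 0.35 and 1.42 for BAT, above the 95th percentile of all genes in 4 of 4 libraries. In taPVAT replicate 1 it was found in 85.8% of nuclei with Ucp1 and 83.2% of those without. The shares were 64.2% and 58.5% in BAT replicate 1. In the libraries numbered 2 nearly every nucleus had a Ppargc1a UMI, and the large values there rest on the 274 and 327 nuclei without one. Ppargc1a UMIs per nucleus were 1.05 to 1.14 times as many with Ucp1 as without, and those of Cidea 1.06 to 1.24 times. Among adipocytes at or below the median mitochondrial share, the value in taPVAT replicate 2 was -0.54, and the other libraries had 0.36, 0.12 and 2.0.

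Cidea was above 0 in 4 of 4 libraries, at 0.15, 0.15, 0.36 and 0.08 in the order taPVAT replicates 1 and 2, then BAT. It passed the 95th percentile in BAT replicate 1 alone, and its value there was 0.11 at or below the median mitochondrial share. Esrrg was above 0 in 4 of 4 as well, from 0.02 to 0.20, and within the bulk of all genes in each library. Acot11 had 0.25 and 0.31 in the libraries numbered 1, above the 95th percentile there, and 0.01 and 0.02 in those numbered 2. At or below the median mitochondrial share it had 0.15 in taPVAT replicate 1 and -0.01 in BAT replicate 1. Prdm16 and Cox8b stayed between -0.01 and 0.16. Otop1 had 0.06, -0.39, 0.14 and -0.02, and its value in taPVAT replicate 2, below the 5th percentile, rests on 235 nuclei with an Otop1 UMI. That value was 0.19 at 500 UMIs, 0.09 at 2000 UMIs and 0.0041 with stricter class limits, so its direction depended on depth and limits. Dio2 was found in 39 to 217 nuclei per library and is not read further.

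**Figure D3:**
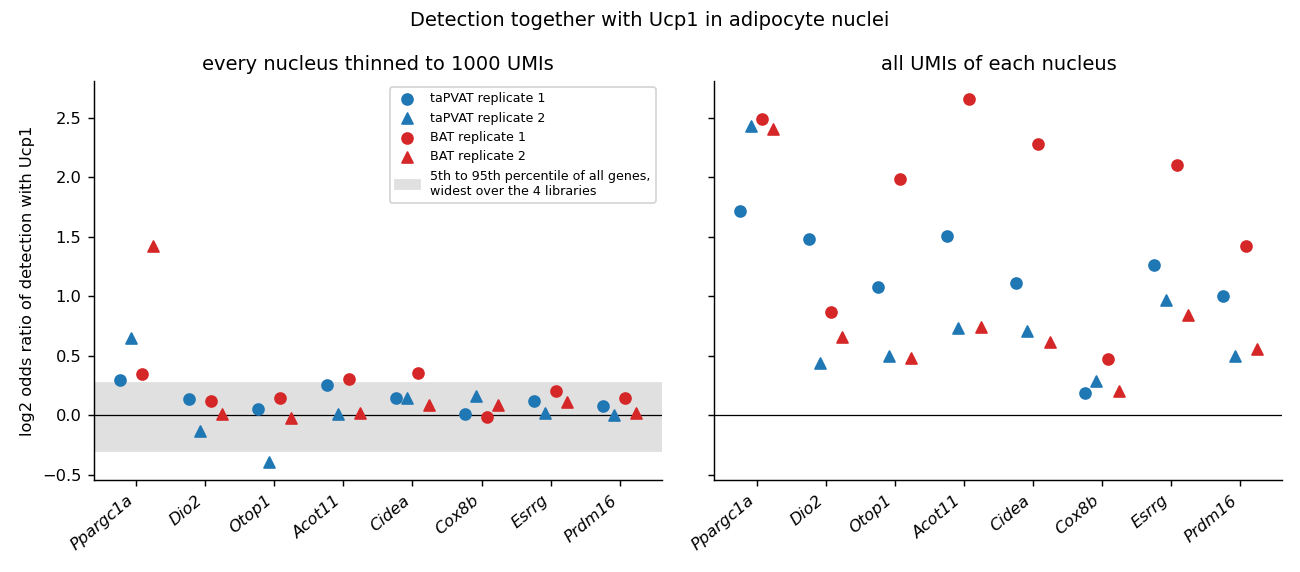
Log2 odds ratio of detection with Ucp1 in adipocyte nuclei for 8 thermogenic genes, 1 point per library, after thinning each nucleus to 1000 UMIs (left, grey band from the lowest 5th to the highest 95th percentile of all genes over the libraries) and with all UMIs (right). Most points on the left lie in the grey band, Ppargc1a lies above it in 4 of 4 libraries, and on the right all 32 points are above 0.

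Without thinning, the nuclei differ in depth and the values were larger. With all UMIs kept, the 32 log2 odds ratios lay between 0.19 and 2.66 and all were above 0. The median over the 8 genes was then 1.18 and 0.60 in taPVAT and 2.05 and 0.64 in BAT, against 0.13, 0.01, 0.17 and 0.05 at 1000 UMIs.

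Nuclei with more Ucp1 UMIs were also compared. In BAT replicate 1 the share with Cidea was 25.7% at 0 Ucp1 UMIs, 29.3% at 1, 31.2% at 2 and 32.0% at 3 or more. Ppargc1a there went from 58.5% to 62.4%, 64.4% and 66.3%, and Acot11 from 28.4% to 31.4%, 33.4% and 34.5%. In BAT replicate 2 the share with Acot11 was 12.7%, 13.1%, 12.5% and 11.9%, with no such order. Otop1 had 3.29%, 2.92%, 1.36% and 1.75% in taPVAT replicate 2, where the last 2 shares are of 514 and 229 nuclei and rest on few with Otop1. Cidea in that library had 22.1%, 23.1%, 24.7% and 28.8%.

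**Figure D4:**
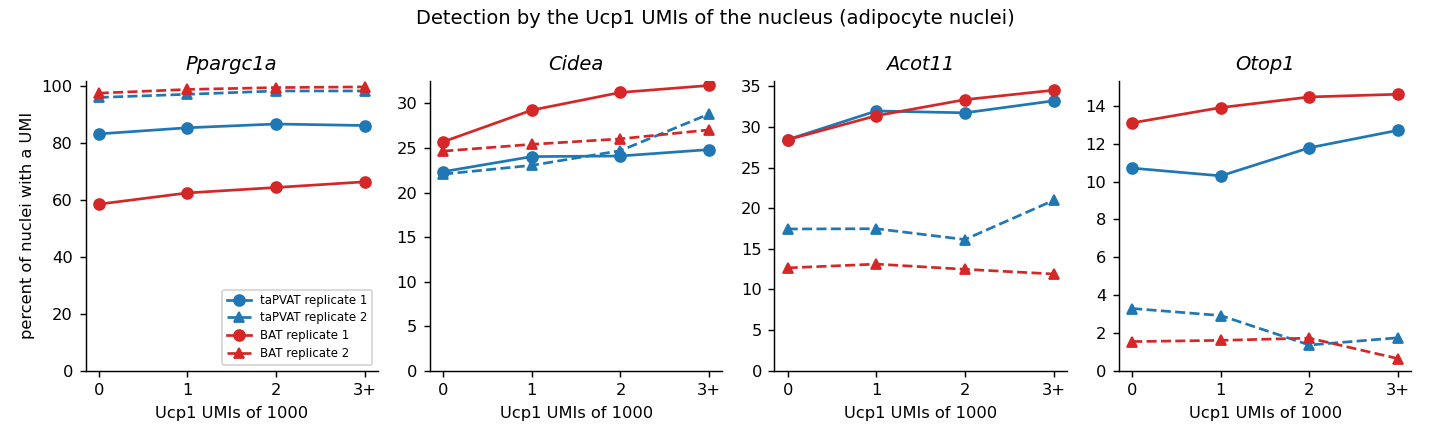
Share of thinned adipocyte nuclei with a UMI of Ppargc1a, Cidea, Acot11 and Otop1 (percent), by the number of Ucp1 UMIs among the 1000 UMIs of the nucleus, 1 line per library. The lines of BAT replicate 1 rise for all 4 genes. Those of the libraries numbered 2 are uneven for Acot11 and end lower at 3 or more Ucp1 UMIs than at 0 for Otop1. Their last points are shares of 229 nuclei in taPVAT and 932 in BAT, few of them with Otop1.

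Pairs that hold Ppargc1a or Cox8b were also counted, without Dio2 and with no background of all genes. Ppargc1a paired with Ucp1, Cidea, Prdm16, Otop1, Esrrg or Acot11 was below 0 in 1 of 24 values, and reached 2.17 with Acot11 in BAT replicate 2 and 3.73 in taPVAT replicate 2, again on the few nuclei without Ppargc1a. Cox8b paired with Cidea, Ppargc1a, Prdm16, Otop1, Esrrg or Acot11 was below 0 in 23 of 24 values. The lowest, -0.86 with Ppargc1a in taPVAT replicate 2, rests on the 274 nuclei without Ppargc1a. Cox8b with Ucp1, left out of that count, had 0.01 and 0.16 in taPVAT and -0.01 and 0.08 in BAT. Ppargc1a with Cox8b, left out of the count for Ppargc1a, had -0.19 and -0.86 in taPVAT and -0.18 and -0.58 in BAT. These values share nuclei and depth and are a description.

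Genes whose detection followed Ucp1 most were found by ranking 2545 genes by their lowest log2 odds ratio over the 4 libraries. Slc4a4, a sodium bicarbonate cotransporter, was first, with 1.09 and 0.46 in taPVAT and 2.04 and 0.79 in BAT. Pde3a, a phosphodiesterase that breaks down cAMP, followed with 0.44 to 0.83, then Gmpr, a GMP reductase, with 0.32 to 0.79. Ppargc1a was the 4th and Gk, glycerol kinase, the 5th at 0.28 to 0.68. LOC100363193, Pdk4, the kinase that holds back pyruvate oxidation, and the Wnt coreceptor Lrp6 came next, with lowest values of 0.28, 0.25 and 0.24. Of the other thermogenic genes ranked, Cidea was 62nd, Esrrg 270th, Acot11 352nd, Prdm16 423rd and Cox8b 506th. The ranks hold for detection among all thinned adipocytes. At or below the median mitochondrial share, Ppargc1a had -0.54 in taPVAT replicate 2, and no ranking was made there. By UMIs per nucleus, with Ucp1 over without, Ppargc1a had ratios of 1.05 to 1.14 and Cidea 1.06 to 1.24.

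At the other end were genes found less often in nuclei with Ucp1 in 4 of 4 libraries. Kcnip1, a potassium channel partner, had -1.24 and -1.27 in taPVAT and -1.80 and -0.97 in BAT. Tshr, the thyrotropin receptor, lay between -1.49 and -0.81, and Ca3, a carbonic anhydrase abundant in adipocytes, between -1.21 and -0.48. No gene of the thermogenic set was below 0 in 4 of 4 libraries.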

How the data were processed

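Nuclear RNA of 2 taPVAT and 2 BAT libraries was counted with Cell Ranger 7.1.0 on build Rnor_6.0, per the submitters' processing notes. The deposited matrices hold raw UMI counts per gene and barcode, which the authors had filtered to barcodes with at least 500 UMIs by a rule not given in the sources used here. The handling of introns and strand is not given either, so overlapping genes are uncertain. Symbols came from the deposited gene table, where Gnas, on more than one row, was left out.

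Barcodes with at least 500 genes were kept. A nucleus was fibroblast-like, endothelial-like, mural-like or macrophage-like with at least 4 UMIs from at least 3 of that class's markers and 75% of all non-adipocyte marker UMIs. It was adipocyte-like with at least 5 adipocyte marker UMIs from 3 markers and at most 1 UMI of another class. These limits were set on the data, and 7 markers found in over 10% of nuclei lacking the rest of their list were left out. The adipocyte limit also removes droplets of mixed classes, and no doublet caller was run. Between 2086 and 8675 unclassed nuclei per library had just 2 or 3 UMIs of other classes.

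UMIs were summed per library and class and compared, 2 libraries against 2, with edgeR 4.0.16 in R 4.3.3 (TMM scaling, filterByExpr, quasi-likelihood test, Benjamini-Hochberg adjustment over all genes, threshold 0.05). Each SE was derived from that test, as the absolute log2 fold change over the square root of the F statistic. DESeq2 1.42.0 was an alternative. With the labels naming no separate origin beyond the replicate number, p-values measure only the spread between these samples. The test was checked on simulated counts, which do not hold the shifts that same-numbered libraries share, so the share of changes it finds there does not carry over to these libraries. Log2 odds ratios had 0.5 added to each cell of the 2 by 2 count. Python 3.11.15 was used for the rest.

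Named genes are the 10, the highest and lowest of each pathway list, the 8 genes most and the 4 least found with Ucp1 (among genes in at least 5% of thinned adipocytes of each library), and the 3 smallest p-values in each direction. Of these, 2 genes are not reported here. Mbp, Hba-a1, Pnpla2 and Mertk were named after their values were seen. The genes and lists were chosen with earlier results of these data known. Alternatives were other scalings, filters, class limits, thinning depths, a replicate block and leaving out each library.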

Additional observations from a re-analysis of the deposited data

How the results depend on the processing

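The 9 thermogenic genes stayed uncalled under every alternative in adipocytes and in all nuclei, apart from Ppargc1a, called without BAT replicate 2 (0 to 1 called when 1 library was left out of the adipocyte fit). The count of all genes called, 0 in both fits, was 36 in adipocytes and 56 in all nuclei without the filter on low counts, and 55 and 121 with DESeq2. Leaving out 1 library gave 0 to 59 in adipocytes and 0 to 40 in all nuclei. No pairing of libraries is stated. The deviations of same-numbered libraries from their group means correlated at 0.627 over 15412 genes. With 2 libraries per tissue the deviations mirror each other, so the crossed numbering gave -0.627. The value thus rests on a single comparison and cannot by itself show a pairing. With the replicate number as a replicate block, 326 genes were called in adipocytes and 157 in all nuclei, none of them thermogenic. Of the 58 pathway genes tested, 6 were among the 326 of 15412 genes called in adipocytes. Acsl5, Adcy3, Agt and Hoxc8 were higher and Lhx8 and Slc7a10 lower in taPVAT. Under the replicate block Otop1 turned to 0.26, from -0.18, and Ucp1 had -0.60 (adjusted p = 0.102 by edgeR) and Ppargc1a 0.66 (adjusted p = 0.142).

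Several directions turned when 1 library was left out, none of them to a value past the threshold. The log2 fold changes then lay between -1.23 and 0.0051 for Ucp1, -1.18 and 2.63 for Ppargc1a, -1.52 and 2.48 for Dio2, -0.26 and 0.28 for Prdm16, -1.52 and 2.16 for Otop1, and -0.40 and 0.96 for Acot11. For pathway genes the ranges were -0.84 to 0.28 for Kcnk3, -0.39 to 2.37 for Adcy3, -0.034 to 0.33 for Cpt2, -0.94 to 0.18 for Plin5 and -0.91 to 0.40 for Alpl.

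The median log2 odds ratio with Ucp1, as the mean over the libraries of a tissue, was 0.07 in taPVAT and 0.11 in BAT. It was 0.15 and 0.20 when unclassed nuclei were counted as adipocytes, and 0.89 and 1.34 without thinning. Among adipocytes at or below the median mitochondrial share it was 0.0049 and 0.04. The level in other classes was taken as the median over 9 genes, Dio2 and Cox8b included, in percent of adipocytes. Values are means over the libraries of a tissue, and the stricter limits left 8 genes in BAT replicate 1. In endothelial-like nuclei of BAT this level went from 71.8 to 67.7 with stricter class limits and 79.2 with at least 1000 genes. In mural-like nuclei of BAT it went from 66.5 to 74.0 with at least 1000 genes. In macrophage-like nuclei the stricter limits and at least 1000 genes gave 61.3 and 75.1 in taPVAT, from 69.3, and 80.3 and 83.5 in BAT, from 75.9. The cause of these shifts was not tested. Few counts limit Dio2 and the macrophage-like class, which held 103 to 212 nuclei.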
